A study of Mus musculus with 8 samples.

Results

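The 6 genes described here encode the costimulatory and inhibitory receptors CD28, CTLA4 and ICOS of T cells and their ligands CD80, CD86 and ICOSL. They were chosen by name, and all 6 had values among the 693 genes measured. The samples were whole tumours of 4MOSC1, a carcinogen-induced mouse oral squamous cell carcinoma line, grown in the right cheek of female C57BL/6N mice aged 4 to 6 weeks. The CXCL10 group was 4 tumours injected with 10 µg of the chemokine CXCL10 in 50 µl of PBS on days 3, 6 and 9 after implantation, and the vehicle group was 4 tumours injected with 50 µl of PBS alone on the same days. All 8 titles give day 10 as the day of collection, whereas the source labels run over days 14 to 17 for the CXCL10 tumours and days 10 to 13 for the vehicle tumours; by those labels day and treatment could not be told apart. All tumours came from 1 implanted cell line, and the labels do not tie each tumour to a separate mouse, so p-values speak only for the spread among these tumours, which may be technical.

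A T cell needs a second signal beside its antigen receptor. CD28, present on resting T cells, gives that signal when it meets CD80 or CD86 on an antigen-presenting cell. CTLA4 binds the same ligands with higher affinity, takes them away from CD28 and restrains the response; it appears on activated T cells and is carried constitutively by regulatory T cells. ICOS is induced by activation, binds ICOSL and sustains helper and effector T cells. CD80 and CD86 are made mainly by dendritic cells, macrophages and B cells, and ICOSL also by endothelial and other non-haematopoietic cells. In the mouse assembly GRCm38.p6, Cd28, Ctla4 and Icos lie next to each other on 1 chromosome with 0 protein-coding genes between neighbours, and Cd80 and Cd86 share another chromosome with 24 protein-coding genes between them.

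RefSeq promoter sequences (GRCm38.p6, 250 bases before to 50 bases after the annotated start) were found for 3 of the 6 genes, and these are shown. They belong to the receptor with the largest difference of the 6 genes (Ctla4), to a ligand it shares with CD28 (Cd80) and to the ligand of ICOS, with the smallest (Icosl). All 3 lie on the plus strand, at chr1:60908775-60909074, chr16:38458683-38458982 and chr10:78069118-78069417 in that order. Capitals mark matches, on either strand, to the NFAT core GGAAA, the interferon gamma-activated GAS motif TTCNNNGAA, the IRF core AANNGAAA, the AP-1 motif TGANTCA or the TATA box TATAAA.
Ctla4: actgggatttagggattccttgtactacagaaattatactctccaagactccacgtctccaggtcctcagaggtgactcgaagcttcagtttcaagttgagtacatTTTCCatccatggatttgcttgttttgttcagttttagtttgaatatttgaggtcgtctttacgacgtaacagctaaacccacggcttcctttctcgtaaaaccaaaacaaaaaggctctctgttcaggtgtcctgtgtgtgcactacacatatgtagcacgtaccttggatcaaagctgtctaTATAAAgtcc
Cd80: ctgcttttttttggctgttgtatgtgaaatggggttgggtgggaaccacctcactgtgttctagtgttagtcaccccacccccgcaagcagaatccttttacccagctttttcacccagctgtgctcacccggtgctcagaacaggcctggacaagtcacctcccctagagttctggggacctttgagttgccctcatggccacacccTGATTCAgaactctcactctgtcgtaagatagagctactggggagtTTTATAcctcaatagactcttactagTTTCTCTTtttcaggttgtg
Icosl: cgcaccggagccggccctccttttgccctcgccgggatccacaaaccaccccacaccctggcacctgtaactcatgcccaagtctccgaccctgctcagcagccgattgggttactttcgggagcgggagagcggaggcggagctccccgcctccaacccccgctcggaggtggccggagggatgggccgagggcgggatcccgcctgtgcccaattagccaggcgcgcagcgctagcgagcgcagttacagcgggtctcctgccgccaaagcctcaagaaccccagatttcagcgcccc
The Ctla4 window held 1 NFAT core on the minus strand, from base -144, and 1 TATA box from base 41 after the start. The Cd80 window held 1 AP-1 motif from base -42, and on the minus strand 1 TATA box from base 5 and 1 IRF core from base 31, and the Icosl window held none of the 5 motifs. GAS letters were in none of the 3 windows. Of 32851 promoters of this length, 61.3% held the NFAT core, 8.3% GAS, 23.9% the IRF core, 7.81% AP-1 and 13.6% the TATA box. An IRF core and an NFAT core can overlap by shared letters; in these windows no 2 matches did. A match is a run of letters and not a measured binding site.

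RNA levels were read as probe counts of a targeted panel, most of whose genes are immune genes. Counts recovered from the deposited values summed to between 1028938 and 1167694 in CXCL10 tumours and between 973697 and 1021358 in vehicle tumours. Epcam and Cdh1, which mark epithelial cells, had at least 2368 and 4020 counts in every tumour, so these markers of the labelled carcinoma were present. The comparison asked which RNA levels differed after CXCL10 injection. Over the panel, limma with Benjamini-Hochberg adjustment called 2 of 693 genes at an adjusted p under 0.05 (0.289%), Cd96 and Il18r1, both higher in CXCL10 tumours and each with an adjusted p of 0.0462. None of the 6 genes described here passed, so each value below is a measured difference that missed that threshold.

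Among the receptors, Ctla4 and Icos were higher in all 4 CXCL10 tumours than in any vehicle tumour, and Cd28 was not. Ctla4 (Entrez 12477), the inhibitory receptor, had 392, 433, 443 and 506 normalized counts in CXCL10 tumours 1 to 4, against 253, 279, 326 and 292 in vehicle tumours 1 to 4. The groups did not overlap, and the gap between the lowest CXCL10 tumour and the highest vehicle tumour was wider than the gaps between neighbouring vehicle tumours. On the log2 scale its level was 8.79 ± 0.15 in CXCL10 tumours and 8.16 ± 0.15 in vehicle tumours (SD, n = 4 each). The log2 difference was 0.62 (SE 0.13, 95% interval 0.34 to 0.91), which is a 1.54-fold higher level, with a limma adjusted p = 0.0915 and an unadjusted p of 0.000605. By p, Ctla4 stood at rank 4 of the 693 genes, behind the 2 called genes and 1 other.

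Icos (Entrez 54167), the inducible costimulator, had 807, 741, 738 and 997 normalized counts in CXCL10 tumours 1 to 4, against 676, 547, 562 and 562 in vehicle tumours 1 to 4. The groups did not overlap, although vehicle tumour 1 came close to the lower CXCL10 tumours. Its log2 level was 9.67 ± 0.20 in CXCL10 tumours and 9.19 ± 0.14 in vehicle tumours (SD, n = 4 each). The log2 difference was 0.48 (SE 0.14, 95% interval 0.18 to 0.78), or 1.39-fold, with a limma adjusted p = 0.167. With quantile normalization, panel median centring or median-of-ratios scaling the groups of Icos overlapped, while those of Ctla4 stayed apart under each of these scalings.

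Cd28 (Entrez 12487), the receptor of resting T cells, had 64.3, 91.3, 65.0 and 63.2 normalized counts in CXCL10 tumours 1 to 4, against 83.1, 70.0, 50.5 and 56.5 in vehicle tumours 1 to 4. The CXCL10 tumours 1, 3 and 4 lay close together in the middle of the vehicle range, and CXCL10 tumour 2 stood above both groups. The log2 difference was 0.14 (SE 0.19, 95% interval -0.28 to 0.55; limma adjusted p = 0.713), and without CXCL10 tumour 2 it was 0.0086. The interval spans folds of 0.825 to 1.46. Cd28 had few counts, 289 summed over the CXCL10 tumours (exact Poisson 95% interval 257 to 324) and 253 over the vehicle tumours (223 to 286). Those intervals cover counting error only and overlap.

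**Figure D1:**
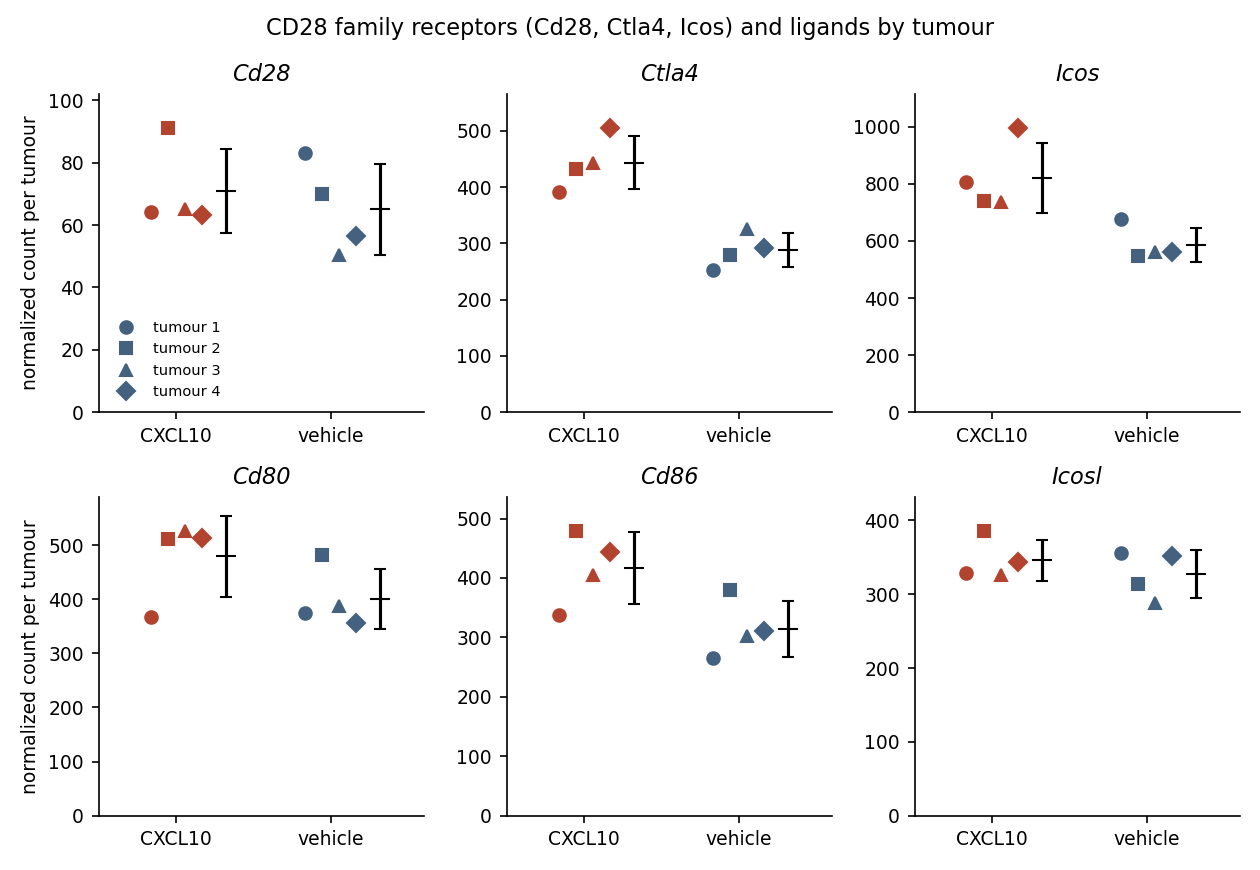
Normalized counts (vertical axes, starting at 0) of the 3 receptors (top row) and 3 ligands (bottom row) in each CXCL10 and vehicle tumour; symbols give the tumour number and black bars the mean ± SD of 4 tumours. Ctla4 and Icos show no overlap between groups, with lowest CXCL10 values of 392 and 738 and highest vehicle values of 326 and 676, and the other 4 genes overlap.

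Of the ligands of CD28 and CTLA4, Cd86 differed more than Cd80. Cd86 (Entrez 12524) had 338, 479, 405 and 444 normalized counts in CXCL10 tumours 1 to 4, against 266, 379, 302 and 311 in vehicle tumours 1 to 4. Only vehicle tumour 2 reached into the CXCL10 range, where it passed CXCL10 tumour 1, so that the CXCL10 tumour was the higher in 15 of 16 pairings. The log2 level was 8.69 ± 0.22 in CXCL10 tumours and 8.29 ± 0.21 in vehicle tumours (SD, n = 4 each). The log2 difference was 0.41 (SE 0.15, 95% interval 0.067 to 0.74), or 1.32-fold, with a limma adjusted p = 0.197 and an unadjusted p of 0.0234.

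Cd80 (Entrez 12519) had 367, 512, 526 and 513 normalized counts in CXCL10 tumours 1 to 4, against 374, 481, 388 and 356 in vehicle tumours 1 to 4. CXCL10 tumours 2, 3 and 4 lay above all vehicle tumours, and CXCL10 tumour 1 lay among the lowest of the 8. The log2 difference was 0.26 (SE 0.15, 95% interval -0.089 to 0.60; limma adjusted p = 0.394). Without CXCL10 tumour 1 it was 0.38 (limma adjusted p = 0.171).

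Icosl (Entrez 50723), the ligand of ICOS, had 328, 385, 326 and 343 normalized counts in CXCL10 tumours 1 to 4, against 356, 314, 288 and 352 in vehicle tumours 1 to 4. The groups overlapped between 326 and 356 normalized counts. The log2 difference was 0.080 (SE 0.12, 95% interval -0.19 to 0.35; limma adjusted p = 0.731), and the interval spans folds of 0.879 to 1.27.

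Taken as a list, 6 of 6 genes had a higher mean in CXCL10 tumours on the authors' scaling, where 69.6% of the panel did, and with median-of-ratios scaling (Icosl -0.025) or quantile normalization (Cd28 -0.053) it was 5 of 6. Groups did not overlap for 2 of 6, against 7.79% of the panel on the higher side, and on the lower side for 0 of 6, against 3.03%. An unadjusted p under 0.05 was reached by 3 of 6 (Ctla4, Icos and Cd86), against 15% of the panel on the higher side, and by 0 of 6 on the lower side, against 4.04%. Without CXCL10 tumour 2 or 4, or vehicle tumour 1 or 3, the count was 2 of 6 (Ctla4 and Icos), and without CXCL10 tumour 1 it was 4 of 6, with Cd80 added. The median log2 difference was 0.33 over the 6 genes and 0.13 over the panel. Measured from the panel median, Ctla4 stood at 0.50, Icos at 0.35, Cd86 at 0.28, Cd80 at 0.13, Cd28 at 0.0092 and Icosl at -0.046.

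**Figure D2:**
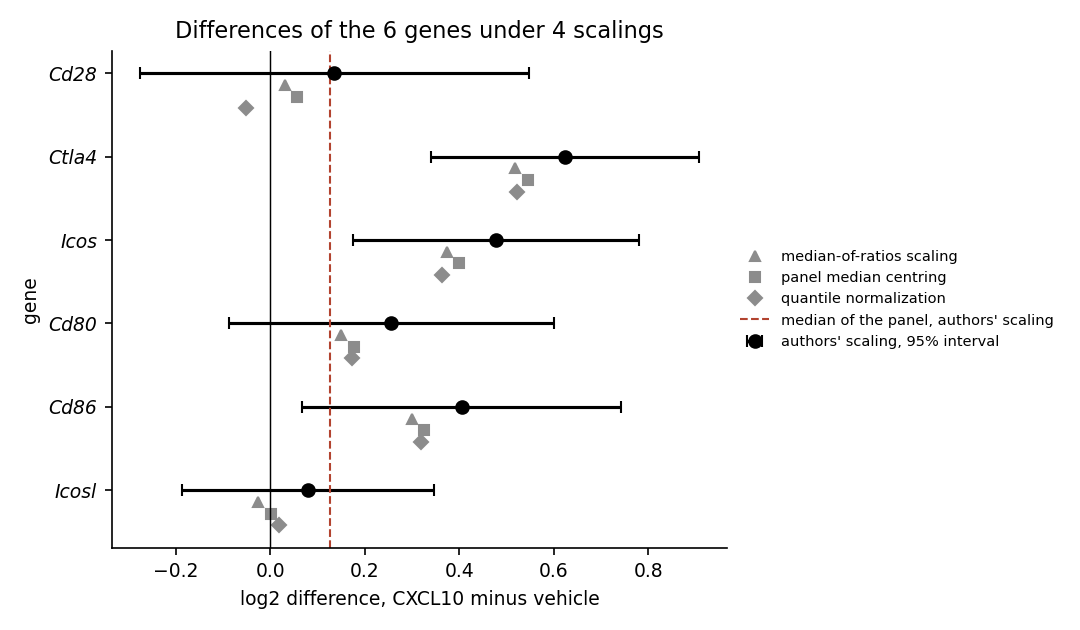
Log2 difference, CXCL10 minus vehicle (horizontal axis), of each gene: black points and bars are the limma estimate and its 95% interval on the authors' scaling, grey symbols the estimate under 3 other scalings, and the dashed line the panel median of 0.13. The intervals of Ctla4, Icos and Cd86 lie above 0 and those of Cd28, Cd80 and Icosl include 0; none of the 6 genes passed the adjusted threshold.

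The 6 genes did not order the tumours in 1 way. CXCL10 tumour 4 was the highest of its group for Ctla4 and Icos, CXCL10 tumour 2 for Cd28, Cd86 and Icosl, and CXCL10 tumour 1 was the lowest for Ctla4, Cd80 and Cd86. In the vehicle group, tumour 1 was the highest for Cd28, Icos and Icosl and at the same time the lowest for Ctla4 and Cd86. Likeness of pattern was measured as the root mean square distance of log2 levels over the 8 tumours, each gene centred on its own mean. By that measure the nearest pair was Cd80 and Cd86, at 0.13, and the farthest was Cd28 and Ctla4, at 0.42. The distance takes in the group difference and is not scaled for the spread of a gene. Ctla4 itself varied by a root mean square of 0.34, and Cd28 had only 52 to 85 counts per tumour.

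T cell genes were also higher in CXCL10 tumours, so the receptors were set against them within each tumour, where any scaling factor of the tumour cancels. In whole tumours, fewer cells of a type and less RNA per cell cannot be told apart. The mean log2 level of the CD3 chain genes Cd3d, Cd3e, Cd3g and Cd247 was 8.51 ± 0.10 in CXCL10 tumours and 8.18 ± 0.25 in vehicle tumours (SD, n = 4 each). Vehicle tumour 1, with the lowest Ctla4 level of all 8, had a CD3 mean of 8.48, within the CXCL10 range of 8.39 to 8.62. A ratio between different probes depends on how well each probe reads its RNA, so each ratio is compared between groups and never with another ratio.

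Relative to the CD3 mean, the log2 ratio was higher in CXCL10 tumours by 0.29 for Ctla4 and 0.15 for Icos and differed by -0.19 for Cd28, and the groups overlapped for all 3. Exact two-sided permutation tests over 4 against 4 tumours gave p = 0.2, 0.343 and 0.2, where the smallest p such a test can give is 0.0286. The Ctla4 ratio rested on single vehicle tumours, with a difference of 0.46 without vehicle tumour 3 and 0.14 without vehicle tumour 1. That of Icos was 0.070 without CXCL10 tumour 4 and 0.23 without CXCL10 tumour 2 or without vehicle tumour 3. That of Cd28 was -0.13 without CXCL10 tumour 4 and -0.29 without CXCL10 tumour 2. Relative to Cd28, the differences were 0.49 for Ctla4 and 0.34 for Icos (exact permutation p = 0.171 for each). The Ctla4 value was 0.30 without vehicle tumour 1 and 0.66 without vehicle tumour 3. The Icos value was 0.20 without CXCL10 tumour 4 and 0.52 without CXCL10 tumour 2. A difference between the receptors in their response was thus not shown by these tests.

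Foxp3, the transcription factor of regulatory T cells, had a log2 level of 6.54 ± 0.28 in CXCL10 tumours and 6.66 ± 0.28 in vehicle tumours (SD, n = 4 each), a difference of -0.12 (limma adjusted p = 0.731). The log2 ratio of Ctla4 to Foxp3 was 1.98 to 2.61 in CXCL10 tumours and 1.11 to 1.77 in vehicle tumours. That of Icos to Foxp3 was 3.02 to 3.35 in CXCL10 tumours and 2.21 to 2.74 in vehicle tumours. Neither ratio overlapped between groups, and the differences of 0.75 and 0.60 are ratios 1.68 and 1.52 times as high. Ctla4 and Icos did not overlap without a denominator either, with differences of 0.62 and 0.48. The 2 ratios thus largely restate those differences and are no further evidence. The exact permutation p was 0.0286 for each, the smallest possible, and 0.0952 after Benjamini-Hochberg adjustment over the 10 ratios examined. With so few of the 10 at that floor, the adjusted p could not fall under 0.05. Most other regulatory T cell genes measured went the other way from Foxp3, with Ikzf2 at 0.42, Tnfrsf18 at 0.37, Ccr8 at 0.35 and Il2ra at 0.28. Relative to the mean of all 9 genes of that list, a denominator chosen after the data were seen, the differences were smaller, at 0.42 for Ctla4 and 0.28 for Icos (exact permutation p = 0.0286 and adjusted p = 0.143 for each). Foxp3 as a denominator was itself chosen with earlier results of these data known.

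On the ligand side, the macrophage genes Cd68, Csf1r, Itgam and Emr1 (the F4/80 antigen) had a mean log2 level of 10.87 ± 0.28 in CXCL10 tumours and 10.98 ± 0.12 in vehicle tumours (SD, n = 4 each). Cd86 relative to that mean was higher in every CXCL10 tumour than in any vehicle tumour, by 0.51 on average (exact permutation p = 0.0286, adjusted p = 0.0952 over the 10 ratios). The groups were barely apart, with a lowest CXCL10 ratio of -2.38 and a highest vehicle ratio of -2.40. Without any 1 of the CXCL10 tumours, or without vehicle tumour 4, the exact permutation p was 0.0571. Cd80 relative to the macrophage mean differed by 0.36 (exact permutation p = 0.143), and Cd80 relative to Cd86 by -0.15 (exact permutation p = 0.2), with overlapping groups in both. The 4 macrophage genes differed by -0.10 on average and come from a list of 10 with a median of 0.027, in which Marco stood at 0.70 and Cd163 at 0.27. Both were uncertain, with an SE of 0.50 for Marco, which had only 6 to 43 counts per tumour, and 0.33 for Cd163. Relative to the mean of all 10, a denominator chosen after the data were seen, the groups overlapped, and the differences were 0.36 for Cd86 (exact permutation p = 0.0571, adjusted p = 0.19) and 0.21 for Cd80 (exact permutation p = 0.257). The 4 macrophage genes were also chosen with earlier results of these data known.

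**Figure D3:**
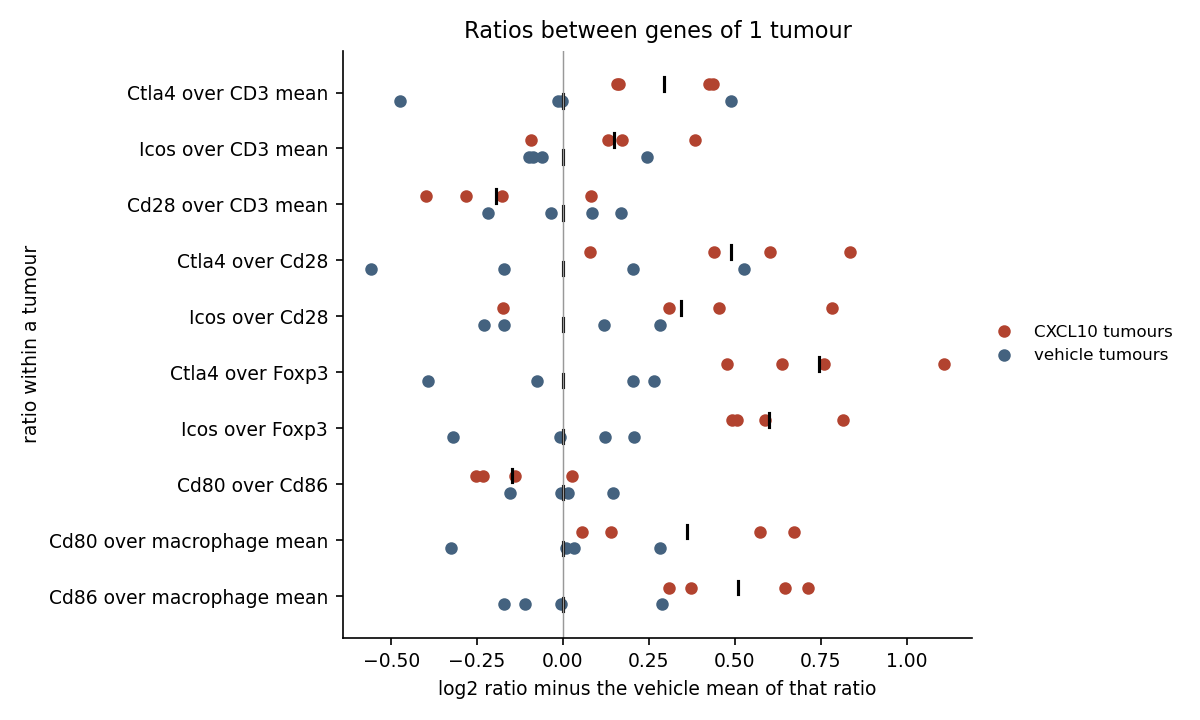
Within-tumour log2 ratios (rows), each shown as its distance from the vehicle mean of that ratio (horizontal axis); points are tumours and black ticks group means of 4. Only Ctla4 over Foxp3, Icos over Foxp3 and Cd86 over the macrophage mean show no overlap between CXCL10 and vehicle tumours, each with an adjusted p of 0.0952. The levels of Ctla4 and Icos did not overlap without a denominator either.

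Genes of CD28 and ICOS signalling, from the kinases next to the receptor to NFAT and NF-kB factors, were measured for 32 of the 47 listed. Of these, 24 had higher and 8 lower means in CXCL10 tumours, near the 69.6% higher over the panel, 0 passed over the panel, and the median log2 difference of 0.15 stood beside 0.13 for the panel. An unadjusted p under 0.05 was seen on the higher side for 4 of the 32, no larger a share than the 15% of the panel, among them Zap70, the kinase of the T cell receptor (0.37), Tbk1, a kinase that ICOS can recruit (0.35), and Map3k7, which encodes the kinase TAK1 (0.32). On the lower side it was seen for Nfatc4 (-0.30), an NFAT family member. The limma adjusted p of these genes lay between 0.195 and 0.259. Lck, which starts signalling at the receptor, stood at 0.24, Pik3cd, the PI3K subunit of leucocytes, at 0.15, and Il2 and Bcl2l1, both induced by CD28, at 0.21 and 0.077. With median-of-ratios scaling the list median was 0.041 and that of the panel 0.021.

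Of the other B7 and CD28 family genes, 5 of 7 were measured, 4 with higher means, beside 69.6% of the panel. Pdcd1, which encodes the inhibitory receptor PD-1, had a log2 level of 7.65 ± 0.33 in CXCL10 tumours and 6.98 ± 0.48 in vehicle tumours (SD, n = 4 each), a difference of 0.67 (limma adjusted p = 0.195) with no overlap. Its ligand gene Cd274 stood at 0.43, Btla at 0.25, Pdcd1lg2 at 0.19 and Cd276 at -0.097, with 0 of the 5 passing.

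Genes of cells that carry these receptors differed unevenly, and their counts stand beside 69.6% of the panel with a higher mean and 15% with an unadjusted p under 0.05 on the higher side. T cell markers were higher in 10 of 10 measured genes, with a median of 0.26, and 5 reached an unadjusted p under 0.05 (Cd8b1 0.59, Cd6 0.47, Cd3d 0.43, Cd3g 0.43 and Cd2 0.29). Their summed level was 2622 to 3187 normalized counts in CXCL10 tumours and 1939 to 2712 in vehicle tumours. Cd4 stood at 0.087 and Cd8a at 0.18. Regulatory T cell genes were higher in 6 of 9, a share near that of the panel, with a median of 0.28. Tnfrsf18 (GITR, 0.37) and the chemokine receptor Ccr8 (0.35) reached an unadjusted p under 0.05, Il2ra stood at 0.28, and Foxp3 was among the 3 lower ones. Their summed level was 1744 to 2011 normalized counts in CXCL10 tumours and 1415 to 1725 in vehicle tumours. Follicular helper genes, whose cells depend on ICOS, were higher in 4 of 6, again near the share of the panel, with a median of 0.26. Cxcl13, a B cell attractant, stood at 0.92 and Sh2d1a, the adaptor SAP, at 0.43, while Bcl6, the defining factor, stood at -0.098. Which cells made these RNAs cannot be told in whole tumours, so the list does not show follicular helper cells as such. Each of the 3 other scalings gave smaller medians, of 0.12 to 0.18 in T cell markers and follicular helper genes and of 0.16 to 0.20 in regulatory T cell genes. None of the genes in these 3 lists passed over the panel, and the part of T cell content in the levels of Ctla4 and Icos was not tested beyond the ratios above.

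Genes of cells that can carry the ligands are given beside the same 69.6% and 15% on the higher side, and 4.04% with an unadjusted p under 0.05 on the lower side. Dendritic cell genes were higher in 6 of 7, with a median of 0.20; Flt3, the growth factor receptor of the lineage, stood at 0.33 and was the 1 of 7 with an unadjusted p under 0.05, a share near that of the panel, Ccr7, the receptor of migrating dendritic cells, at 0.34 and Itgax at -0.19. Their summed level was 2040 to 2792 normalized counts in CXCL10 tumours and 2018 to 2252 in vehicle tumours. Monocyte and macrophage genes were higher in 6 of 10, with a median of 0.027 (-0.10 to -0.052 under the 3 other scalings, and -0.17 to 0.11 with 1 tumour left out), and B cell genes in 2 of 6, with a median of -0.070, which lay between -0.097 and 0.026 when single tumours were left out. Endothelial genes, from cells that can make ICOSL, were lower in 7 of 7, with a median of -0.41, and 6 reached an unadjusted p under 0.05. NK cell markers were higher in 4 of 4 (median 0.34, or 0.17 without CXCL10 tumour 2; Ncr1 0.12), and only Klrd1 (0.63) reached an unadjusted p under 0.05. Of the 3 epithelial genes measured, Epcam (0.35) reached it, while Cdh1 stood at 0.042 and Muc1 at -0.092. Their median was 0.042, and -0.073 to -0.037 under the 3 other scalings. With those other scalings the medians became 0.081 to 0.12 in dendritic cell genes, -0.22 to -0.15 in B cell genes, 0.20 to 0.26 in NK cell markers and -0.52 to -0.49 in endothelial genes. None of these genes passed over the panel.

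**Figure D4:**
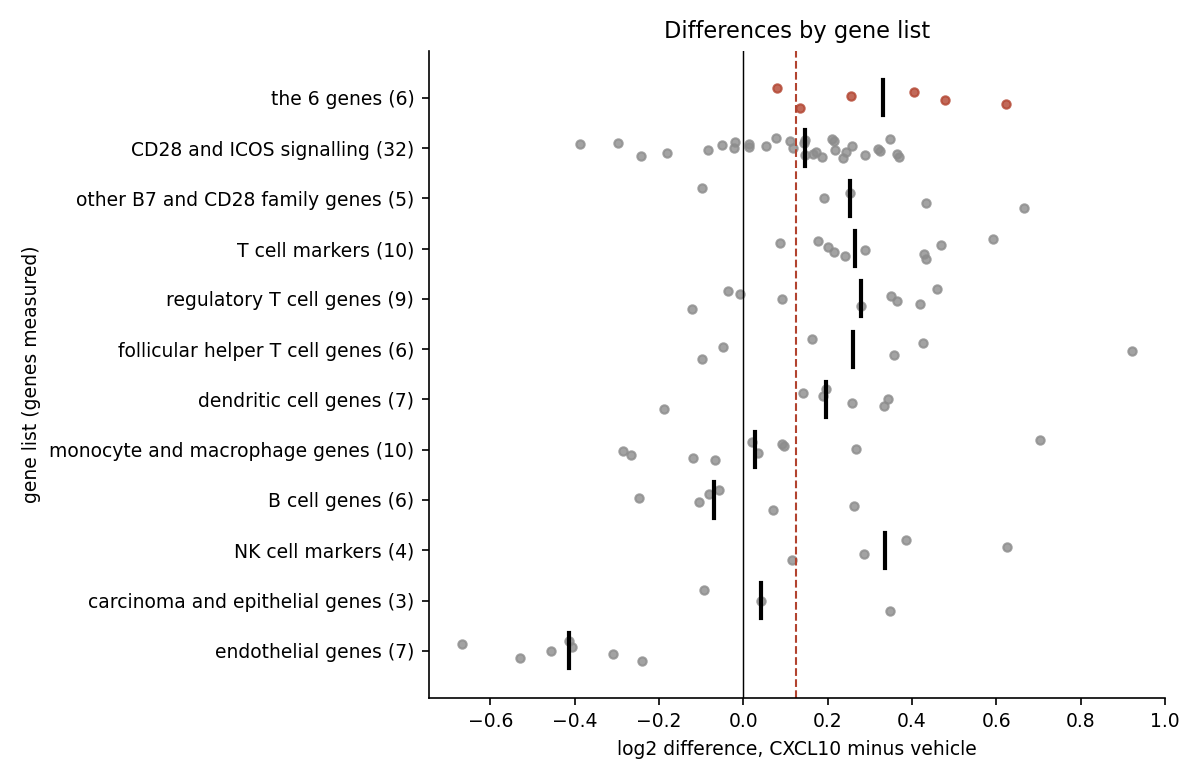
Log2 difference, CXCL10 minus vehicle (horizontal axis), of the 6 genes (red points) and of the genes in 11 lists (grey points), with list medians as black bars, the panel median of 0.13 as a dashed line and the number of genes measured in brackets. The 6 genes have a median of 0.33, T cell markers one of 0.26 and endothelial genes one of -0.41.

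Outside the 6 genes, the panel genes nearest to each in pattern were found by the same distance over the 8 tumours. Nearest to Ctla4 were Il18r1, a chain of the interleukin-18 receptor (0.13), Sh2d1a (0.14) and Ripk2, a kinase of innate sensing (0.16). In all 3 the groups did not overlap, against 7.79% of the panel on the higher side. The distance takes in the group difference, so this follows from how the 3 genes were chosen and is no further evidence. Nearest to Icos were Cd3g (0.096), Il12rb1, a chain of the interleukin-12 receptor (0.097), and Hras (0.11). Nearest to Cd28 were Klra5, an NK cell receptor (0.12), Cd247, the CD3 zeta chain (0.13), and H60a, a ligand of NKG2D (0.14). Both Icos and Cd28 had a CD3 chain among their nearest 3 genes. The distance takes in the group difference here too, so this is no further evidence on either gene.

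Nearest to Cd86 were Itga4, an integrin of leucocytes (0.083), Ptprc, the leucocyte marker CD45 (0.088), and Mapk8 (0.10). Nearest to Cd80 were Bax, a death effector (0.061), Nt5e, the ectoenzyme CD73 (0.088), and Ccr7 (0.090). Nearest to Icosl were Selplg (0.070), Tmed1 (0.073) and Cmah (0.074). Icosl itself varied by a root mean square of 0.12 over the 8 tumours, so many genes of small spread lie near it.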

How the data were processed

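The authors deposited log2 normalized counts of 693 genes, with 1 column for each of the 8 tumours. The panel had 782 probes per the file headers, of which 748 were endogenous, with 55 of these pruned, and 6 of 20 housekeeping genes were used in normalization. Platform, software and genome build were not given in the sources used here. Another 16 value columns carry names that match no sample and were not used, negative control probes among them, so background was not assessed. Taken out of log2, 100% of values were whole multiples of 1 step per tumour (tolerance 0.02 counts). The authors' coefficient of variation, deposited in percent, was met by the recovered counts in 693 of 693 genes.

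All 693 genes were fitted with limma 3.58.1 (R 4.3.3; group as the only term, plain eBayes, Benjamini-Hochberg over 693), checked on simulated data. The fit with a mean-variance trend is an alternative. Ratios were tested with exact two-sided permutation over all splits of the tumours. SciPy 1.17.1 gave the Benjamini-Hochberg adjustment of the ratios and the Poisson intervals. Depth was 973697 to 1167694 recovered counts per tumour, and the lowest count was 6. Named genes are the 6 members, the 3 nearest in pattern to each, list genes with an unadjusted p under 0.05 or a defining role, and panel genes passing the adjusted threshold. Where a list holds more of them than are useful, they are counted, and a few are not reported here. Members, lists and tests were chosen with earlier results of these data known, so no list is independent evidence. Alternatives were 3 scalings, a pseudocount of 1, a count filter, voom weights, a replicate block and leaving out each tumour.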

Additional observations from a re-analysis of the deposited data

Results flagged for a closer look

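Single tumours far from the rest of their group were looked for with Dixon's gap criterion at the 95% level. This held in 4 of 54 sets of values checked, where chance gives about 1 in 20 sets, and the sets share the same tumours. CXCL10 tumour 2 stood high for Cd28, with 6.51 on the log2 scale, while the other CXCL10 tumours had 5.98 to 6.02. CXCL10 tumour 1 stood low for Cd80, at 8.52 against 9.00 to 9.04. Vehicle tumour 1 stood high for Icos, at 9.40 against 9.09 to 9.13 in the other vehicle tumours. Vehicle tumour 3 stood high for the log2 ratio of Icos to the CD3 mean, at 1.26 against 0.91 to 0.95, and it had the lowest CD3 mean of the 8 tumours (7.88).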

How the results depend on the processing

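None of the 6 genes passed the adjusted threshold under any of the 16 alternatives. Ctla4, Icos, Cd80 and Cd86 kept their direction in all 16; the adjusted p of Ctla4 ran from 0.0707 to 0.234 and its log2 difference from 0.52 to 0.69. Cd28 turned to -0.053 with quantile normalization and Icosl to -0.025 with median-of-ratios scaling; the cause was not tested. With 1 tumour left out the differences ran from 0.0086 to 0.26 for Cd28, 0.56 to 0.69 for Ctla4, 0.38 to 0.55 for Icos, 0.20 to 0.38 for Cd80, 0.33 to 0.50 for Cd86 and 0.021 to 0.12 for Icosl. The count of panel genes called was 2, and it was 0 with a mean-variance trend, voom weights, median-of-ratios scaling, panel median centring or the replicate block, 1 with quantile normalization, and 0 to 5 with 1 tumour left out (5 without vehicle tumour 2, 0 without any other). The unadjusted p was under 0.05 for 104 genes higher and 28 lower on the authors' scaling (78.8% higher), 61 and 60 with median-of-ratios scaling (50.4%), 76 and 50 with panel median centring (60.3%) and 56 and 64 with quantile normalization (46.7%). Same-numbered tumours did not pair: their deviations from the group means correlated at 0.25, -0.32, 0.23 and -0.26 over genes, and 1 of 4 CXCL10 tumours correlated best with its own number. The 10 ratios kept their direction, and none passed after adjustment, in 11 alternatives each. The same held, for the 4 ratios to Foxp3 or the macrophage mean, with the mean of the whole list as denominator. That denominator was added after the data were seen, and the main denominators were chosen with earlier results of these data known. The smallest exact p was 0.0286, so after adjustment over 10 ratios none could pass unless most stood at that floor. Not passing therefore says little about any 1 ratio. Over 4 pairs the smallest p is 0.125, so the paired test could not pass. The count filter removed 0 genes. List medians moved by more than the spread between tumours in 7 cases, all with median-of-ratios scaling or quantile normalization. Few counts limit Cd28, with 52 to 85 per tumour. Other named genes with few counts include Marco (6 to 43), Cd8b1 (24 to 59), Il2 (25 to 37) and Btla (42 to 77).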
